A study of Caenorhabditis elegans with 11 samples.

Results

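gst-4, gst-13, gst-38, gst-30 and gst-32 are 5 genes of the glutathione S-transferase (GST) family of Caenorhabditis elegans, and their transcripts were followed in worms exposed to oxygen, with and without RNA interference (RNAi) against skn-1. They were chosen on these same arrays for a strong rise under oxygen and for differing dependence on skn-1. The choice states no size of difference as a threshold. Each of the 5 genes had 1 probe set, out of 22625 probe sets on the array and 17118 genes named by a probe set with 1 gene. Because the members were picked on these contrasts, their values are given as a description and carry no test.

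GSTs join the tripeptide glutathione to reactive compounds, among them products of lipid peroxidation, and so prepare them for export from the cell. SKN-1, the worm counterpart of the mammalian NRF transcription factors, is known to switch on many detoxification genes in the intestine when worms meet oxidants. A reporter made from the promoter of gst-4 is widely used to read SKN-1 activity in living worms.

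Whole adult hermaphrodites were profiled on 11 Affymetrix C. elegans Genome Arrays, 1 array for each RNA sample. Worms of the skn-1 RNAi with oxygen group (n = 3) received RNAi against skn-1 and oxygen. Worms of the oxygen group (n = 4) received oxygen, and their labels name no RNAi. Control worms (n = 4) were left untreated. All groups were 3 days old, carried no other stated allele, and had been kept at 25 °C since the first larval stage, and they were sterile. The sample labels give the strain as TJ1090 and the design text gives TJ1060. Oxygen was given at 99% and 40 PSI for 6 h at 20 °C. No pressure or temperature is stated for the control worms over those hours, so oxygen, pressure and handling cannot be told apart. RNAi without oxygen was not analysed here, and no group is labelled as oxygen with a control RNAi. Effects of RNAi itself therefore cannot be told apart from those of skn-1. A strain with a gst-4::GFP reporter was checked by the submitters beside both treated and untreated worms. In RNA of whole worms, fewer cells of a type and less RNA per cell cannot be told apart. The labels do not say that the samples were grown separately, so the p-values below measure the spread between these samples, which may be technical.

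Values are MAS5 signals, a linear brightness for each probe set that is not comparable between probe sets. Comparison between arrays is limited by the array sets described below, which differ in scaling and were not rescaled for the main fit. Total signal was 6863652 to 9138002 per array, and precision is limited by how few arrays each group has. The arrays fell into a pair of sets that no label states. Control 1 and 2 and oxygen 1 and 2 (set 1) carried spike-in signal with medians of 110 to 211, and the other 7 arrays (set 2) had medians of 2.95 to 14.1. Set 1 was also scaled to a lower trimmed mean, 207 to 217 against 250 to 251 in set 2. All 3 skn-1 RNAi arrays lay in set 2, so each member is also given within set 2. All 15 of 15 intestine markers had a probe set, and none of them was dim on every array. This is no check of the tissue, since the marker lists of other tissues had at most 1 such dim gene each.

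The RNAi target was checked first. On 1 of its 3 probe sets, the one carried as skn-1 in the lists, skn-1 had signals of 235.2, 371.1 and 434.8 in skn-1 RNAi worms, 487.8, 416.8, 681.2 and 455.0 in oxygen worms, and 447.3, 442.2, 796.7 and 454.3 in control worms. The third RNAi array lay above oxygen 2, an array of set 1, so these groups overlapped over all arrays. Within set 2, all 3 RNAi arrays lay below both oxygen arrays and both control arrays. The difference between skn-1 RNAi with oxygen and oxygen was -0.58 ± 0.31 on the log2 scale (standard error) and did not pass the test (limma, adjusted p = 0.547). With the array set as a block it was -0.76 (adjusted p = 0.318). On the second probe set, skn-1 RNAi worms had 263.3, 385.8 and 285.0, against 276.4, 285.7, 628.6 and 468.5 in oxygen worms and 251.0, 267.3, 671.4 and 654.4 in control worms. There too the RNAi arrays lay below every oxygen and control array of set 2. On the third, skn-1 RNAi worms had 255.8, 344.8 and 397.6, against 132.0, 75.7, 372.4 and 504.7 in oxygen worms and 92.9, 78.2, 427.0 and 484.6 in control worms. On this probe set the RNAi arrays overlapped with oxygen 3 within set 2, and all 4 arrays of set 1 were lower than any of set 2. Where these probe sets lie relative to the RNAi fragment is not given in the sources used here. The group is called skn-1 RNAi by its label throughout.

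The 5 members separated oxygen from control worms on every array. In this contrast 3.29% of the 15389 probe sets tested were called higher and 0.539% lower (limma, adjusted p under 0.05). Signals of all 5 members were higher on each of the 4 oxygen arrays than on each of the 4 control arrays, which the choice of members fixes. With skn-1 RNAi they parted. gst-13 and gst-38 lay below their control levels, gst-32 was as dim as in controls, and gst-4 lay between its oxygen and control levels. gst-30 kept 80.3% of its oxygen signal over all arrays and 64.5% within set 2. Between skn-1 RNAi with oxygen and oxygen, every RNAi array was lower than every oxygen array for gst-4, gst-13 and gst-38. That held for gst-32 too, but its RNAi signals were dim and it entered the fit through oxygen arrays alone. For gst-30 the groups overlapped, though only with the oxygen arrays of set 1. In that contrast 0.0455% of probe sets were called higher and 0.182% lower. Between skn-1 RNAi with oxygen and control, all RNAi arrays of gst-4 and gst-30 lay above every control array, and those of gst-13 and gst-38 below. There 2.49% of probe sets were called higher and 0.851% lower. Those shares count calls, which is a different measure from groups that do not overlap. The share of all probe sets whose groups did not overlap was not counted. Of 30 other GST genes tested, groups did not overlap for 12 between skn-1 RNAi with oxygen and oxygen. Between skn-1 RNAi with oxygen and control that number was 15, and between oxygen and control it was 14. Since the members were selected on these contrasts, nothing is read from how many of them separated.

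**Figure D1:**
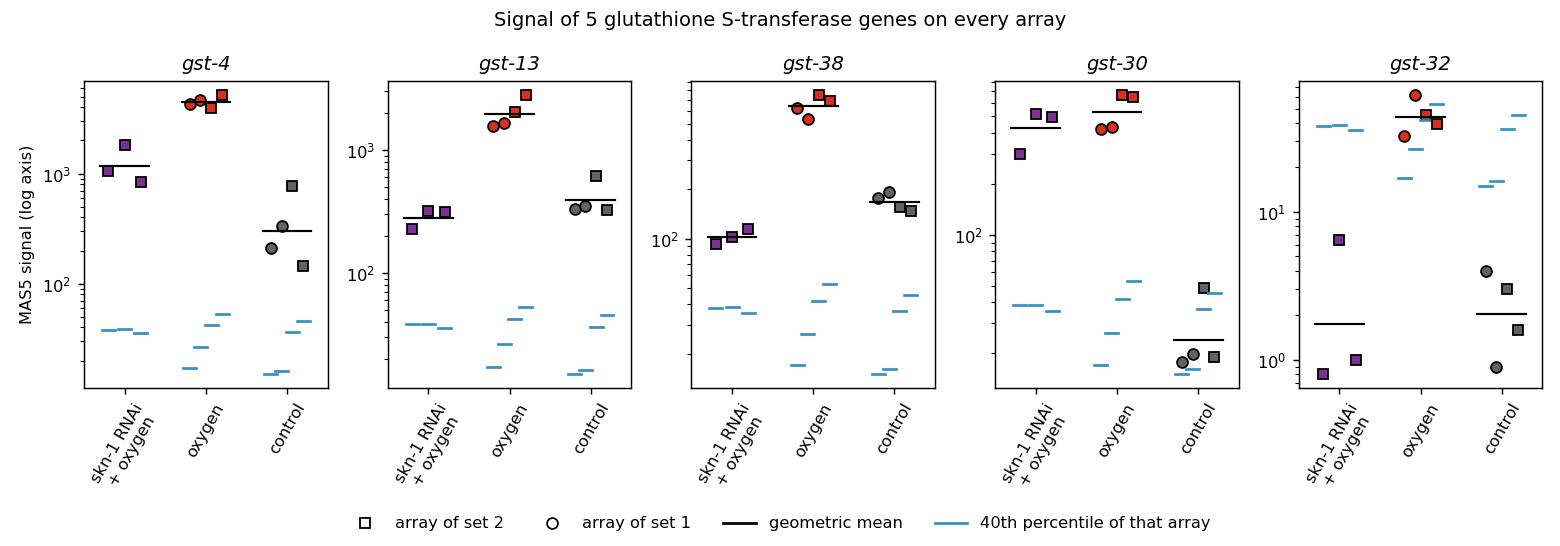
Signal (log axis, MAS5 units) of each of the 5 genes on every array, for skn-1 RNAi with oxygen (n = 3), oxygen (n = 4) and control (n = 4); each point is 1 array. For gst-4 the RNAi arrays sit between 843.6 and 1823.4, above every control array and below every oxygen array, while for gst-30 they sit at 300.5 to 516.4, among or just below the oxygen arrays.

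The gene gst-4 (K08F4.7) had the intermediate pattern. Its signals were 1054.2, 1823.4 and 843.6 in skn-1 RNAi worms with oxygen, 4263.5, 4701.6, 3977.6 and 5170.7 in oxygen worms, and 210.5, 332.1, 773.5 and 145.7 in control worms. None of the 3 groups overlapped, although the lowest RNAi array came near the highest control array, at 843.6 with skn-1 RNAi against 773.5 on control 3. Group means were 1240 ± 516 with skn-1 RNAi, 4528 ± 522 with oxygen and 365 ± 283 in controls (SD). Oxygen worms were 3.92 ± 0.47 higher than control worms on the log2 scale (standard error), which is 15.1-fold. Worms with skn-1 RNAi and oxygen were 3.84-fold lower than oxygen worms (log2 -1.94 ± 0.50) and 3.94-fold higher than control worms (log2 1.98 ± 0.50). On the log2 scale, 50.5% of the distance between control and oxygen was thus still present with skn-1 RNAi. As a share of signal, 26.1% of the oxygen level remained, and the single RNAi arrays lay at 18.7% to 40.5% of it.

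The spread of gst-4 was uneven between groups. The highest over the lowest array was 5.31-fold in control worms, 1.30-fold in oxygen worms and 2.16-fold in skn-1 RNAi worms. The coefficient of variation was 41.6% with skn-1 RNAi, 11.5% with oxygen and 77.4% in controls. Leaving out control 3 moved the difference between oxygen and control to 4.38, and leaving out control 4 moved it to 3.57. Within set 1 that difference was 4.08 and within set 2 it was 3.76. Within set 2, skn-1 RNAi worms were 1.95 below oxygen worms and 1.81 above control worms on the log2 scale.

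The gene gst-13 (T26C5.1) had signals of 226.2, 317.2 and 311.0 with skn-1 RNAi and oxygen, 1573.8, 1647.9, 2032.7 and 2793.1 with oxygen, and 332.3, 352.8, 613.1 and 327.8 in controls. All RNAi arrays lay below all control arrays, but by little: the highest RNAi array was at 317.2 and the lowest control array at 327.8. Group means were 285 ± 50.8, 2012 ± 558 and 407 ± 138 (SD) for skn-1 RNAi with oxygen, oxygen and control. Oxygen worms were 5.00-fold above control worms (log2 2.32 ± 0.28). Worms with skn-1 RNAi were 6.96-fold below oxygen worms (log2 -2.80 ± 0.30) and 1.39-fold below control worms (log2 -0.48 ± 0.30). Only 14.4% of the oxygen signal was present with skn-1 RNAi, which is 71.9% of the control signal. Within set 1 the difference between oxygen and control was 2.23, and within set 2 it was 2.41. Within set 2 the difference between skn-1 RNAi with oxygen and oxygen was -3.08, and that to control was -0.67.

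The gene gst-38 (F35E8.8) behaved much as gst-13 did, at tighter spread. It had 93.0, 103.0 and 115.1 with skn-1 RNAi and oxygen, 625.6, 537.0, 748.6 and 683.6 with oxygen, and 177.2, 192.7, 155.4 and 147.8 in controls. The 3 groups formed 3 separate bands, with the RNAi worms lowest. Group means were 103.7 ± 11.1, 649 ± 89.8 and 168 ± 20.5 (SD), again in that order of groups. Oxygen worms were 3.85-fold above control worms (log2 1.94 ± 0.19), and the difference was 1.65 within set 1 and 2.24 within set 2. Worms with skn-1 RNAi were 6.23-fold below oxygen worms (log2 -2.64 ± 0.21) and 1.62-fold below control worms (log2 -0.70 ± 0.21). The single RNAi arrays held 14.4% to 17.9% of the oxygen signal. Within set 2 these differences were -2.79 to oxygen and -0.55 to control. Over all 15389 probe sets, the median difference of skn-1 RNAi with oxygen minus control was 0.36. The median signal of an array was 58.7 to 63.7 with skn-1 RNAi. It was 57.4 and 67.5 on the controls of set 2, and 27.4 and 28.5 on those of set 1. The median difference therefore mixes treatment with array set. With every array centred on its own median, the differences to control became -1.05 for gst-13 and -1.27 for gst-38, which share that limit.

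The gene gst-30 (ZK546.11) kept most of its signal. It had 300.5, 516.4 and 492.9 with skn-1 RNAi and oxygen, 421.3, 429.4, 666.7 and 648.9 with oxygen, and 17.8, 19.9, 48.6 and 19 in controls. Treated worms of both kinds were far above every control array, and RNAi arrays 2 and 3 lay above the 2 oxygen arrays of set 1. Group means were 437 ± 118 with skn-1 RNAi, 542 ± 134 with oxygen and 26.3 ± 14.9 in controls (SD). Oxygen worms were 22.1-fold above control worms (log2 4.47 ± 0.36), and within sets 1 and 2 the difference was 4.50 and 4.44. Worms with skn-1 RNAi were 17.8-fold above control worms (log2 4.15 ± 0.39). They were 1.25-fold below oxygen worms (log2 -0.32 ± 0.39), with overlapping groups. Within set 2 alone, all 3 RNAi arrays lay below both oxygen arrays, at a log2 difference of -0.63. The share of the oxygen signal present with skn-1 RNAi was 80.3% over all arrays and 64.5% within set 2. The control 4 value fell below the 40th percentile of its own array, the level used here in place of a detection limit.

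The gene gst-32 (Y53F4B.37) was dim outside the oxygen group. It had 0.8, 6.5 and 1.0 with skn-1 RNAi and oxygen, 32.9, 61.9, 45.6 and 39.1 with oxygen, and 4.0, 0.9, 3.0 and 1.6 in controls. All RNAi and control arrays and oxygen 4 lay below the 40th percentile of their array, so gst-32 entered the fit through 3 oxygen arrays alone. Group means were 2.77 ± 3.23 with skn-1 RNAi, 44.9 ± 12.5 with oxygen and 2.38 ± 1.39 in controls (SD). Against that percentile, oxygen worms were at least 1.73-fold above control worms, and skn-1 RNAi worms were at least 1.16-fold below oxygen worms. No fold is given between skn-1 RNAi worms and control worms, since both groups were dim.

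**Figure D2:**
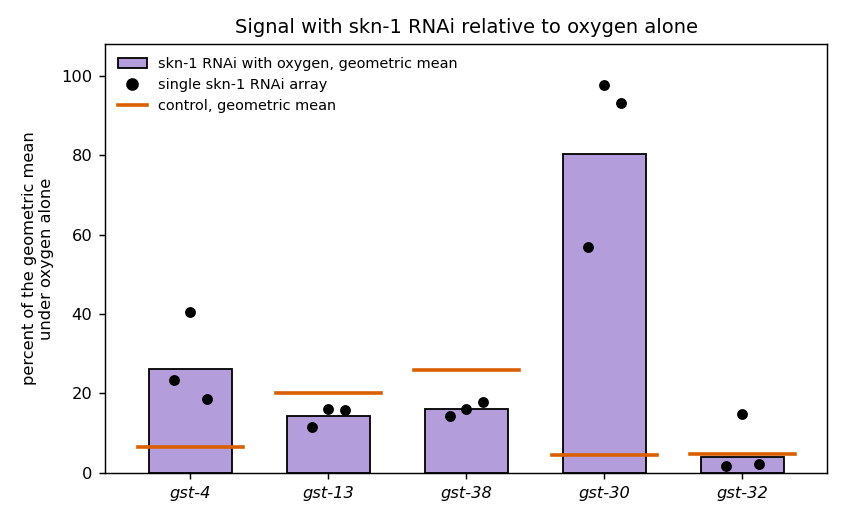
Geometric mean signal with skn-1 RNAi and oxygen as a percent of that with oxygen alone (bars), with each of the 3 RNAi arrays (points) and the control geometric mean (orange lines) on the same scale. The bar is 80.3% for gst-30, 26.1% for gst-4, 16.0% for gst-38 and 14.4% for gst-13. Against the oxygen arrays of set 2 alone, the share for gst-30 is 64.5%. The bar of gst-32 rests on signals below the 40th percentile of their arrays.

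The likeness of the members was measured by their profiles over the 11 arrays. Each log2 profile was centred on its own mean, and the root mean square difference was taken between pairs. gst-13 and gst-38 were the closest pair, at 0.36. The next closest, gst-4 and gst-30, differed by 0.97, and gst-4 differed from gst-13 by 1.1 and from gst-38 by 1.29. gst-30 differed from gst-13 by 1.84 and from gst-38 by 1.97. No distance is read for gst-32, which was dim on 8 of the 11 arrays.

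**Figure D3:**
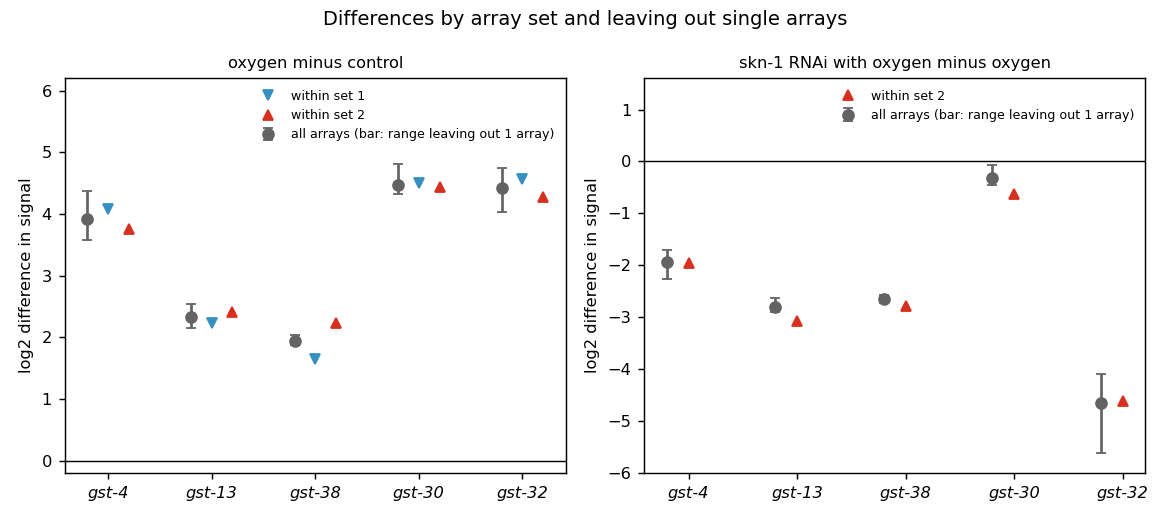
Log2 difference in signal of each gene over all arrays (circles, with bars for the range when 1 array at a time was left out), within set 1 (downward triangles) and within set 2 (upward triangles), for oxygen minus control and for skn-1 RNAi with oxygen minus oxygen. The gst-38 difference between oxygen and control is 1.65 within set 1 and 2.24 within set 2; values of gst-32 are fitted to dim signals.

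Some array-to-array differences were shared by the members. Control 3 was the highest control array for gst-4, gst-13 and gst-30, at 773.5, 613.1 and 48.6, but not for gst-38 or gst-32. Among oxygen arrays, oxygen 3 and 4 (set 2) exceeded oxygen 1 and 2 (set 1) for gst-13, gst-38 and gst-30, but not for gst-4 or gst-32. The second skn-1 RNAi array was the highest of its group for gst-4, gst-13, gst-30 and gst-32. The part of the array set in these differences was not tested.

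The rest of the GST family was examined next. Of 44 other GST genes listed, 40 had a probe set named here and 30 passed the filter on dim probe sets. Oxygen raised 9 of the 30 and lowered 1 relative to control (limma, adjusted p under 0.05). Over all probe sets tested, 3.29% were called higher and 0.539% lower. The 9 include gst-14, which entered the fit through oxygen arrays alone. The median log2 difference of the 30 was 0.79, against 0.06 over all probe sets tested. The list was chosen with earlier results of these arrays known. The count of genes raised was 5 without control 2 and 5 without oxygen 3, 4 within set 2 and 1 within set 1. With the replicate number as a block on the oxygen and control arrays alone, 6 were raised and 2 lowered.

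Among the GSTs raised by oxygen, gst-14 averaged 99.6 ± 24.6 in oxygen worms and 6.28 ± 2.47 in control worms (SD, n = 4 each). All its control and skn-1 RNAi arrays were below the 40th percentile of their arrays, so gst-14 entered the fit through oxygen arrays alone. Its rise was at least 3.86-fold (limma, adjusted p = 0.000712), and no call of gst-14 is read as support. gst-39 averaged 1515 ± 304 in oxygen worms and 249.5 ± 90.9 in controls, a 6.24-fold rise (adjusted p = 0.000786). gst-12 averaged 529 ± 114 in oxygen worms and 57.8 ± 36.4 in controls, which is 10.4-fold (adjusted p = 0.00254). gst-10, whose enzyme is known to conjugate the lipid peroxidation product 4-hydroxynonenal, averaged 2183 ± 283 in oxygen worms and 721 ± 240 in controls. This was 3.12-fold (adjusted p = 0.00965), and the call was lost after median centring (adjusted p = 0.168) and within set 2 (0.163). gst-9 rose at least 4.40-fold (adjusted p = 0.0176), a call lost without control 2 or oxygen 3 (0.0573 each), without oxygen 4 (0.0574) and within set 2 (0.138). The remaining 4, named after their values were seen, were gst-16, gst-22, gst-5 and gst-6, with log2 rises of 1.98, 1.46, 2.92 and 2.54. gst-26 was the 1 GST that fell, with 165 ± 84.2 in oxygen worms and 558 ± 62.4 in controls (adjusted p = 0.0131, and 0.0588 after median centring).

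With skn-1 RNAi and oxygen, none of the 30 other GSTs passed the test as lower than with oxygen alone, and 1 passed as higher. Over all probe sets tested, 0.182% were called lower and 0.0455% higher. At an unadjusted p under 0.05, 8 were lower and 2 higher in limma, and the median log2 difference was -0.48, against 0.22 over all probe sets. With the array set as a block, 4 passed as lower: gst-10, gst-14, gst-12 and gst-39. gst-10 averaged 676 ± 207 with skn-1 RNAi, against 2183 ± 283 with oxygen (log2 -1.73, adjusted p = 0.069, 0.0388 with the set block and 0.0405 without control 3). gst-14 averaged 20.7 ± 14.7 with skn-1 RNAi, a dim group, and so was at least 2.60-fold lower than with oxygen (adjusted p = 0.0779, 0.0479 with the set block). gst-14 also passed without the second skn-1 RNAi array (adjusted p = 0.0234). Since gst-14 entered the fit through oxygen arrays alone, these calls are not read as support. gst-12 averaged 156 ± 75.9 with skn-1 RNAi (adjusted p = 0.27, 0.0304 with the set block), and gst-39 averaged 643 ± 133 (adjusted p = 0.216, 0.0479 with the set block).

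The GST that was higher with skn-1 RNAi was gsto-1, which encodes an omega-class enzyme. It averaged 1166 ± 269 with skn-1 RNAi and oxygen and 85.5 ± 44.5 with oxygen (log2 3.93 ± 0.45, adjusted p = 0.00562). Control worms had 90.5 ± 29.4, so oxygen alone left gsto-1 at a log2 difference of -0.22 from control (adjusted p = 0.931). The call against oxygen was lost after median centring (adjusted p = 0.0725) and when only the groups compared were fitted (0.0504). Relative to control worms, skn-1 RNAi worms had 4 other GSTs of the 30 higher and 2 lower, against 2.49% and 0.851% of all probe sets tested. gsto-1 (adjusted p = 0.0027), gst-39 (0.0357) and, named after their values were seen, gsto-3 and gst-22 were higher, and gst-26 (0.0111) and gst-27 (0.028) were lower. The gsto-1 call was lost after median centring (0.0535). The gst-39 call was lost under quantile normalization, median centring, no filter, set 2 alone and the compared groups alone (0.073 to 0.308), and without control 1, 2 or 3, oxygen 1, or any single skn-1 RNAi array (adjusted p 0.0566 to 0.153). The gst-27 call was lost without control 1 or 2 or any single skn-1 RNAi array (0.0768 to 0.116), after median centring (0.0971) and without the filter (0.0562), and the gst-26 call without the second skn-1 RNAi array (0.0645).

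**Figure D4:**
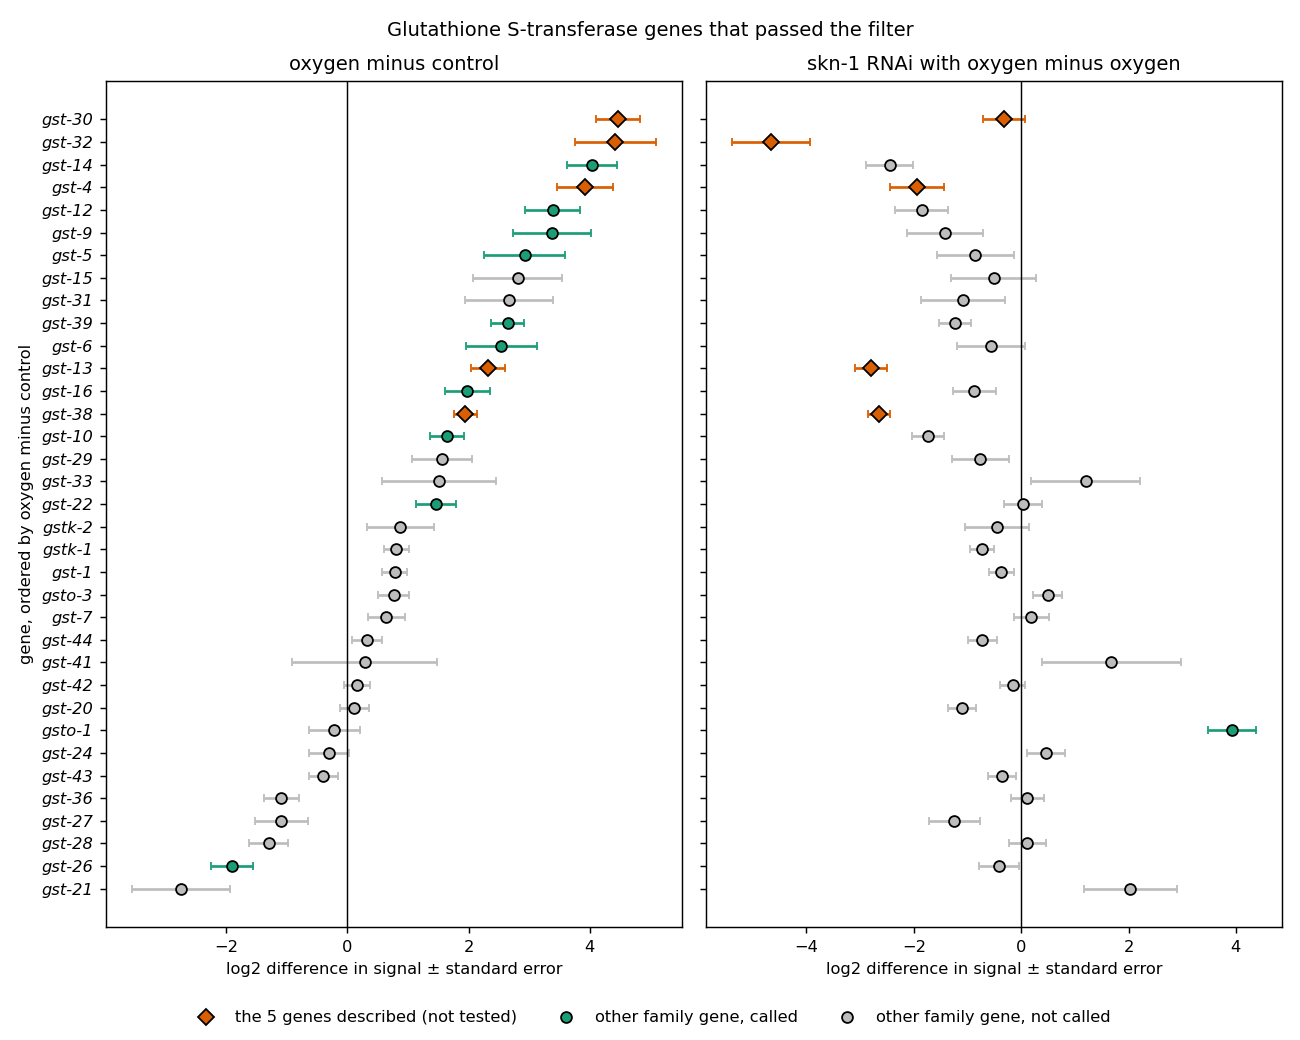
Log2 difference in signal with its standard error for the 35 GST genes that passed the filter, the 5 members included, for oxygen minus control and for skn-1 RNAi with oxygen minus oxygen; marker colour shows members, other GSTs that passed the test and the rest. gsto-1 stands apart at 3.93 in the panel for skn-1 RNAi, and values of gst-32, gst-14 and gst-9 are fitted to dim groups.

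Of the genes that lie next to the members in the gene order of the reference table, 2 are GSTs. gst-4 lies next to gst-2, which did not pass the filter, and gst-32 lies next to gst-34, for which no probe set is named here.

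Genes that supply glutathione and reducing power were counted in the same way. Of 12 tested genes of glutathione synthesis and recycling, oxygen raised 2 and lowered 1 relative to control, with a median log2 difference of 0.14. Over all probe sets tested, 3.29% were called higher and 0.539% lower. gcs-1, the catalytic subunit of the enzyme that limits glutathione synthesis, averaged 1526 ± 469 in oxygen worms and 471 ± 84.2 in controls, 3.18-fold (adjusted p = 0.00487, 0.159 after median centring). The glutaredoxin gene glrx-10 rose 2.18-fold (adjusted p = 0.0167), a call lost without oxygen 1 (0.0515), after median centring (0.53), with the compared groups alone (0.06) and within set 2 (0.0616). cth-1, a cystathionine gamma-lyase that makes cysteine, averaged 111 ± 18.5 in oxygen worms and 310 ± 105 in controls (adjusted p = 0.0162). That call was lost without control 2 (0.0515), oxygen 3 (0.0554) or oxygen 4 (0.0528), after median centring (0.0604) and within set 2 (0.0735).

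With skn-1 RNAi and oxygen, 0 of the 12 passed the test against oxygen in limma, and at an unadjusted p under 0.05 there were 4 lower and 0 higher. gcs-1 had 915 ± 120 with skn-1 RNAi, a log2 difference of -0.70 from oxygen (adjusted p = 0.465). Against control, cysl-2, a member of the cysteine synthase family, averaged 174 ± 67.7 with skn-1 RNAi and 797 ± 311 in controls (adjusted p = 0.0201). The cysl-2 call was lost without control 1 or 2 or skn-1 RNAi array 1 or 2 (0.0571 to 0.0981), within set 2 (0.143) and with the compared groups alone (0.0604). Of 8 genes of NADPH supply, which recharges oxidised glutathione, nnt-1 was the 1 that passed against control, with 115 ± 18.9 in oxygen worms and 39.6 ± 18.2 in controls (adjusted p = 0.021). It was lost without control 1 or 2 or oxygen 1 or 3 (0.0571 to 0.0707), after quantile normalization (0.112) or median centring (0.182), within set 2 (0.238), with the compared groups alone (0.0537) and with the replicate block over all arrays (0.0509). None of the 8 passed in either comparison of skn-1 RNAi worms (limma); at an unadjusted p under 0.05 there were 0 against oxygen and 1 higher against control.

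Of the 8 mrp genes, which encode pumps that can export glutathione conjugates, mrp-2 rose 4.42-fold, with 183 ± 78.4 in oxygen worms and 38.3 ± 4.76 in controls (adjusted p = 0.00824, 0.06 after median centring). With skn-1 RNAi it averaged 137 ± 45.5, a log2 difference of -0.35 from oxygen (adjusted p = 0.723). Against control mrp-2 passed with skn-1 RNAi (adjusted p = 0.0338), and the call was lost when any of 7 arrays was left out (control 1, 2 or 3, oxygen 1 or any skn-1 RNAi array, 0.053 to 0.15), with the set block (0.0504), without the filter (0.071) and after quantile normalization (0.136) or median centring (0.24). No mrp gene passed between skn-1 RNAi with oxygen and oxygen (limma), and 1 was higher at an unadjusted p under 0.05.

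SKN-1 targets known from other work, outside the GST family, gave a set of patterns to place beside the members. This list too was chosen with earlier results of these arrays known. Of 14 tested, 7 rose with oxygen and 0 fell (limma, adjusted p under 0.05), and 0 were lower at an unadjusted p under 0.05. Over all probe sets tested, 3.29% were called higher. The median log2 difference of the 14 was 1.43, against 0.06 over all probe sets tested. sdz-8 averaged 1323 ± 295 in oxygen worms and 73.1 ± 18.2 in controls, 18.2-fold (adjusted p = 8.92e-05). sqst-1, which encodes the autophagy adaptor p62, rose 7.47-fold (adjusted p = 0.00103). F56D5.3 rose 19.7-fold (adjusted p = 0.00149).

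With skn-1 RNAi, sdz-8 was the 1 gene of the 14 that passed as lower than with oxygen, at 367 ± 83.8 (log2 -1.85 ± 0.29, adjusted p = 0.0339). That is the intermediate pattern of gst-4: below oxygen and above control, 5.04-fold (adjusted p = 0.0027). The call against oxygen was lost in 9 of the 11 fits that left out 1 array, all but those without control 1 or control 4 (adjusted p 0.0507 to 0.205). It was also lost without the filter (0.0947), within set 2 (0.083) and with the compared groups alone (0.0762), and it held with the set block (0.0034). F56D5.3 had 59.7 ± 6.59 with skn-1 RNAi against 476 ± 53.2 with oxygen (log2 -2.99, adjusted p = 0.0812, 0.0209 with the set block). sqst-1 had 1360 ± 122 with skn-1 RNAi against 2531 ± 1179 with oxygen (log2 -0.78, adjusted p = 0.512). The median difference of the 14 genes was -0.74, against 0.22 over all probe sets tested. At an unadjusted p under 0.05, 6 of the 14 were lower than with oxygen and 0 higher (limma). Against control, 2 of the 14, sdz-8 and sqst-1, were higher with skn-1 RNAi and 1, cysl-2, was lower. The sqst-1 call against control was lost without skn-1 RNAi array 2 (0.0686) or 3 (0.0534) and after median centring (0.0847).

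Of 8 tested genes for SKN-1 and its regulators, 0 passed between oxygen and control (limma; 0 at an unadjusted p under 0.05). Between skn-1 RNAi with oxygen and oxygen, 0 passed and 1 was higher at an unadjusted p under 0.05. gsk-3, a kinase known to restrain SKN-1, averaged 141 ± 12.1 with skn-1 RNAi and 24.1 ± 18.5 in controls (adjusted p = 0.0491). The gsk-3 call was lost in 9 of the 11 fits that left out 1 array, all but those without control 4 or oxygen 2 (0.0507 to 0.169). It was also lost after quantile normalization (0.183) or median centring (0.211), without the filter (0.0899), within set 2 (0.116) and with the compared groups alone (0.0584).

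Genes whose profiles lay nearest to the members were then listed, by root mean square difference of centred log2 signal over the 11 arrays among 14445 probe sets. They are a description, with no test. Nearest to gst-4 were D1022.3 at 0.38, gst-14 at 0.55 and srr-4, a serpentine receptor gene, at 0.58. D1022.3 averaged 58.7 with skn-1 RNAi, 232 with oxygen and 15.1 in controls, and srr-4 averaged 462, 1475 and 99.8 in the same groups. Nearest to both gst-13 and gst-38 were cbl-1, a gene of the cystathionine beta-lyase family, at 0.42 and 0.32, and mbug-1 at 0.48 and 0.39. The third places went to F01D5.1 for gst-13 at 0.49 and to pdxk-1, a pyridoxal kinase gene, for gst-38 at 0.47.

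The first of a pair of cbl-1 probe sets averaged 197 ± 30.9 with skn-1 RNAi and oxygen, 955 ± 81.6 with oxygen and 313 ± 71.5 in controls (SD). The other averaged 333 ± 66.7, 1403 ± 229 and 477 ± 65.4 in the same groups. Both cbl-1 probe sets therefore had the order seen for gst-13 and gst-38, with skn-1 RNAi worms below controls. mbug-1 averaged 229 with skn-1 RNAi, 949 with oxygen and 281 in controls, and pdxk-1 averaged 291, 923 and 427.

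Nearest to gst-30 were ugt-26 at 0.44, cdr-4 at 0.45 and F54B8.4 at 0.47. ugt-26, a UDP-glucuronosyltransferase gene and thus of another conjugating family, averaged 1576 ± 542 with skn-1 RNAi, 2840 ± 380 with oxygen and 100.3 ± 31.4 in controls. cdr-4, of the cadmium-responsive family, averaged 1430 ± 617, 2157 ± 534 and 141 ± 32.1 in the same groups. On the log2 scale, skn-1 RNAi worms differed by -0.90 from oxygen worms and by 3.97 from control worms for ugt-26, and by -0.66 and 3.26 for cdr-4. For gst-32 the same rule named gst-14 at 1.03, F56D5.3 at 1.17 and F55G11.2 at 1.19, over a profile of mostly dim signals.

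**Figure D5:**
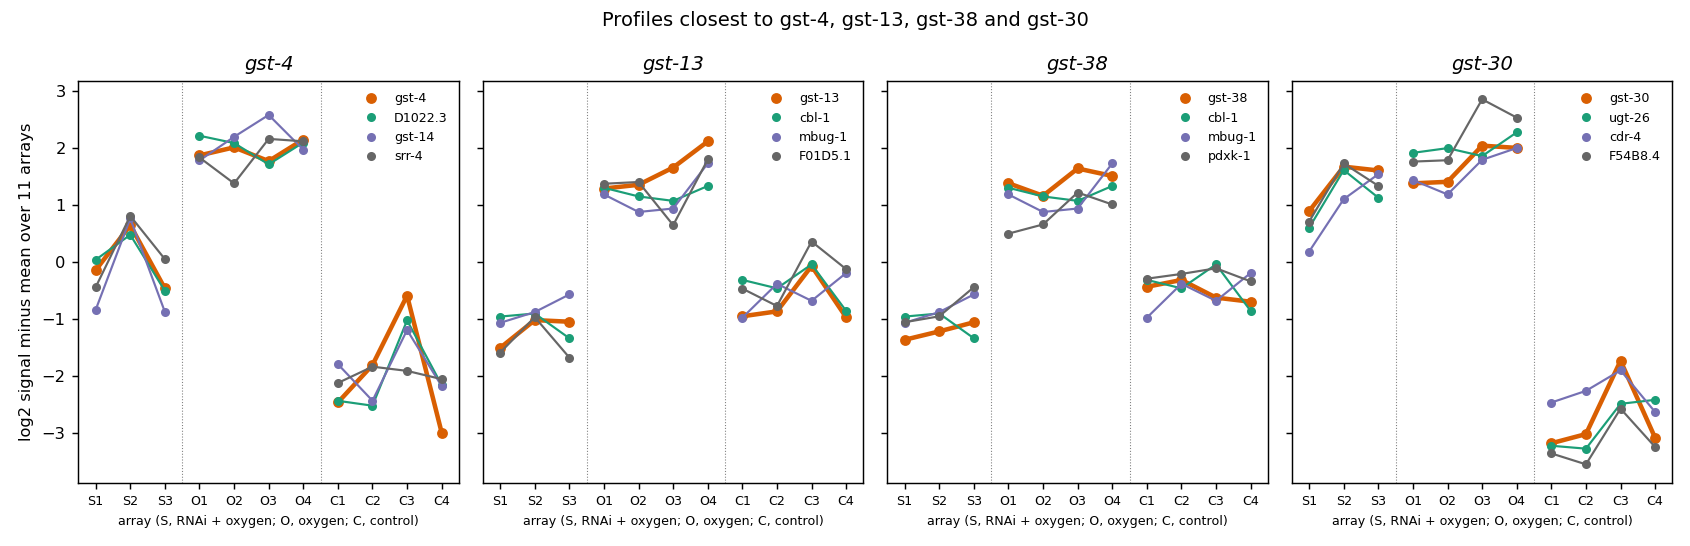
Centred log2 signal on each of the 11 arrays for gst-4, gst-13, gst-38 and gst-30 (orange) and the 3 genes nearest to each; arrays are skn-1 RNAi with oxygen (S1 to S3), oxygen (O1 to O4) and control (C1 to C4). The RNAi arrays sit below the controls for gst-13, gst-38 and cbl-1, and nearer to the oxygen than to the control arrays on this log2 scale for gst-30, ugt-26 and cdr-4.

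Markers of tissues were read beside these results. Each sum below adds linear signals of probe sets that are not comparable with one another, so the brightest genes weigh most. The summed signal of the 15 intestine markers was 41396 to 49918 with skn-1 RNAi and oxygen, 46084 to 60598 with oxygen and 42889 to 71038 in controls, so the groups overlapped. Among intestine markers, cpr-1 rose with oxygen (adjusted p = 0.0129) while nhx-2 (0.000851), pept-1 (0.0102) and act-5 (0.0309) fell. The cpr-1 call was lost after median centring (0.276), with the compared groups alone (0.0508) and within set 2 (0.0605), and the pept-1 call within set 2 (0.0742). The act-5 call was lost with the replicate block on the oxygen and control arrays alone (0.0529) and without the filter (0.0616). With the compared groups alone (0.06) and within set 2 (0.0622) it was lost as well. It was also lost without control 3 or 4, any single oxygen array or the second RNAi array (0.0512 to 0.101). The 10 body wall muscle markers summed to 16170 to 20313 with skn-1 RNAi, above all oxygen arrays (9471 to 15178) and all control arrays (8567 to 14535), and hlh-1 was dim on every array. The 10 epidermis markers summed to 8953 to 21266 with skn-1 RNAi, 10540 to 22221 with oxygen and 20765 to 33635 in controls. The 16 oocyte and germ line markers summed to 52651 to 56704, 42766 to 53620 and 48537 to 76032 in the same groups.

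Sperm markers, 11 of 14 on the array, summed to 3635 to 4509 with skn-1 RNAi, 809.5 to 4276 with oxygen and 500.1 to 3772 in controls, with spe-38 dim on every array. Of the 9 sperm markers tested, all 9 were above 0 in the log2 difference between skn-1 RNAi with oxygen and control, with a median of 1.96. None passed the test (limma), 6 were higher at an unadjusted p under 0.05, and 8 passed with the replicate block, although the numbers do not pair the skn-1 RNAi arrays. Against oxygen all 9 were above 0 as well, with a median of 1.37. The 10 pharynx markers summed to 859 to 1149, 541 to 1341 and 355 to 1370 in the same groups, with ceh-22 dim on every array. The 10 neuron markers summed to 3470 to 4155, 2858 to 4556 and 2048 to 3410, with unc-31 dim on every array. Outside the intestine, oxygen changed 1 marker relative to control: glh-1, of the germ line list, fell (adjusted p = 0.0257). Leaving out control 1, 2 or 3, oxygen 1 or 4, or the first or second RNAi array ended that call (0.05 to 0.0767). So did the replicate block on the oxygen and control arrays alone (0.0519), median centring (0.199) and no filter (0.0778). The glh-1 call was also lost with the compared groups alone (0.0956) and set 2 alone (0.153). Against control, skn-1 RNAi worms with oxygen had nhx-2 (0.0393) and dpy-13 (0.0456) lower and the muscle gene unc-89 higher (0.0452), each lost in 8 to 10 of the 11 fits that left out 1 array. These call losses spanned adjusted p of 0.0502 to 0.175 for nhx-2, 0.0529 to 0.167 for dpy-13 and 0.0541 to 0.162 for unc-89. No marker passed between skn-1 RNAi with oxygen and oxygen (limma); at an unadjusted p under 0.05, 3 body wall muscle markers and 1 each of intestine, germ line and sperm were higher. Muscle sums were thus higher with skn-1 RNAi than with oxygen, while sperm sums overlapped between these groups. In log2 difference to oxygen, all 9 sperm and all 9 muscle markers tested were above 0. So were 15 of 16 germ line, 8 of 9 pharynx, 6 of 8 neuron, 7 of 15 intestine and 4 of 9 epidermis markers. All 3 skn-1 RNAi arrays lay in set 2, and no marker value within set 2 is given for this comparison. On the same arrays gst-4, gst-13 and gst-38 were lower than with oxygen. The part of these tissues in the members' values was not tested.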

How the data were processed

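The authors deposited an intensity for each probe set on each array, on a linear scale. The submitters' processing notes name MAS5 and GCOS 1.4; scaling target and background settings are not given in the sources used here. Per the labels, each labelling reaction took 10 µg of RNA. The design text names 2 places of hybridisation without saying which array went where. From the deposited table, 77 control probe sets were left out and the 1 signal of 0 was set to 0.1. Genes were named from GEO's platform annotation, with 20766 probe sets naming 1 gene, 887 several and 895 none; 20701 identifiers matched the RefSeq table (WBcel235, used for names and gene order) and 0 symbols changed. The 15389 probe sets with at least 3 arrays at or above the 40th percentile of their own array were fitted on log2 signals with limma 3.58.1 (lmFit, eBayes; R 4.3.3), all 11 arrays, group as the only term. Two-sided p-values were adjusted by Benjamini and Hochberg's method over all probe sets tested. The fit was tested on simulated data.

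Where every array of a group was below that percentile, folds are bounds against it. Lists count each of 11657 genes by the probe set whose log2 signal was highest on average. They were other GSTs, glutathione synthesis and recycling, NADPH supply, mrp pumps, SKN-1 targets from other work, skn-1 with its regulators, and markers of 7 tissues. The members and lists were chosen with earlier results of these data known. Genes named beside the members were skn-1, the 3 nearest profiles per member, up to 4 called genes with the smallest adjusted p per list and comparison, and the 3 other GSTs with the largest difference between oxygen and control.

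Arrays of oxygen and control worms with the same number deviated together from their group means (correlations 0.565, 0.449, 0.489 and 0.523). Both arrays of each such number lie in the same array set, and arrays of different numbers were not compared. Pairing by number and a shared array set therefore cannot be told apart. Correlations of these arrays with skn-1 RNAi arrays of the same number were -0.128 to -0.00446. Alternatives were quantile normalization, median centring, an offset of 16, no filter, a stricter filter (at least 4 arrays at or above their median), the array set as a block, set 2 alone, the replicate block, the compared groups alone, and leaving out each array. Set 1 alone and the block on oxygen and control arrays alone were added after the data were seen.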

Additional observations from a re-analysis of the deposited data

Results flagged for a closer look

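In 2 of the 10 groups of 4 arrays examined for the 5 genes, 1 array stood apart from the other 3, and both times it was control 3. For gst-13 control 3 had a signal of 613.1, against 327.8 to 352.8 on the other controls, and the gap to the nearest array took 0.9124 of the group's range. For gst-30 control 3 had 48.6, against 17.8 to 19.9, and the gap took 0.9318 of the range. Both lie above Dixon's 95% critical value for 4 arrays, and chance flags about 1 in 20 such groups.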

How the results depend on the processing

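Of 290 log2 differences of the 5 genes under other settings, 277 moved by less than the replicate spread and 0 reversed. After median centring, differences were -1.05 (gst-13, skn-1 RNAi with oxygen minus control), 1.58, -2.85 and -1.27 (gst-38, oxygen minus control, skn-1 RNAi with oxygen minus oxygen, and minus control) and 3.58 (gst-30, skn-1 RNAi with oxygen minus control). Quantile normalization gave -2.96 and -1.11 for gst-38 with skn-1 RNAi against oxygen and control. The gst-38 difference between oxygen and control was 2.24 in set 2 and 1.65 in set 1. With 16 added, gst-30 gave 3.74 (oxygen minus control) and 3.44 (skn-1 RNAi with oxygen minus control), and gst-32 gave 1.71 (oxygen minus control) and -1.69 (skn-1 RNAi with oxygen minus oxygen). The gst-32 values are fitted to dim signals, for which the data give bounds only. Leaving out 1 array gave 3.57 to 4.38 for gst-4 between oxygen and control.

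Counts of calls depended on the setting more than directions did: 147 of 248 stayed within 1.5 times. The cause was not tested. For oxygen against control, 507 probe sets were higher, and 221 after median centring, 1137 with the set block, 306 with only these groups fitted and 29 in set 1. Leaving out 1 array gave 284 (without oxygen 3) to 522, with 324 and 307 without control 1 and 2 and 301 without oxygen 4. Lower calls were 83, and 39 without the filter, 288 with the set block, 44 in set 2, 40 with these groups alone, 1 in set 1 and 41 (without control 1) to 73 leaving out 1 array. Among other GSTs, higher calls were 9, with 4 in set 2, 1 in set 1 and 5 to 11 leaving out 1 array. Lower calls were 1, with 0 after median centring or in set 1, 2 with 16 added, 3 with the stricter filter, 5 with the set block and 1 to 2 leaving out 1 array.

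For skn-1 RNAi with oxygen against oxygen, 7 probe sets were higher, with 2 after median centring, 20 with 16 added, 4 without the filter, 11 with the stricter filter, 28 with the set block and 3 (without RNAi array 1 or 2) to 14 (without control 4) leaving out 1 array. Lower calls were 28, with 50 after quantile normalization, 47 with 16 added, 16 without the filter, 88 with the set block, 10 in set 2, 16 with these groups alone and 13 (without RNAi array 1) to 43 (without control 4) leaving out 1 array. Other GSTs had 1 higher call, with 0 after median centring or with these groups alone. They had 0 lower calls, with 2 after quantile normalization, with 16 added or with the stricter filter, 4 with the set block, and 0 to 1 leaving out 1 array.

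For skn-1 RNAi with oxygen against control, 383 were higher, with 208 after quantile normalization, 110 after median centring, 195 without the filter, 228 in set 2 and 87 (without RNAi array 2) to 494 leaving out 1 array. Lower calls were 131, with 220 after quantile normalization, 67 without the filter, 199 with the stricter filter, 242 with the set block, 58 in set 2 and 32 (without RNAi array 2) to 146. Other GSTs had 4 higher calls, with 1 after quantile normalization, without the filter or in set 2, 0 after median centring, 2 with these groups alone and 1 to 4 leaving out 1 array. They had 2 lower calls, with 1 after median centring or without the filter, and 0 to 2 leaving out 1 array.

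With the replicate block over all arrays, 19 probe sets were higher with skn-1 RNAi and oxygen than with oxygen, and 1364 were higher and 305 lower than in control, where 7 other GSTs were higher. With the block on the oxygen and control arrays alone, 2 other GSTs were lower in oxygen. The numbers do not pair skn-1 RNAi arrays with the others. Of 698 log2 differences of the other called genes, 518 kept their call and 180 lost it, with 0 reversed; the skn-1 difference passed the test in none of 20. Of 1488 counts of the other lists, 1314 stayed within 1.5 times. With 3 or 4 arrays a group, signals under the 40th percentile give bounds only.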
